A study of Homo sapiens with 4 samples.

Results

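The genes described here are the E2F transcription factors and the RB pocket proteins that hold them in check. Members were taken by symbol: E2F1 to E2F8 and the pocket protein genes RB1 and RBL1, which are 10 of the 22458 genes with a symbol in the expression table, and all 10 were measured in every array. RBL2, the remaining pocket protein gene, was not on this list and is described beside it. The cells were LN229, an established human glioblastoma line, which received either a pool of nontargeting siRNA (NT, 2 arrays) or a pool of RAB38 siRNA (siRAB38, 2 arrays). Both groups were transfected without serum or antibiotics, received serum to 1.5% after 24 h and gave total RNA at 48 h. All values are log2 signals that the authors normalized by RMA, so a difference of 1 is a doubling or halving, and each gene has its own probes, so levels are not compared between genes. No source used here says that replicate arrays came from separate cultures, so the p-values reflect array-to-array spread that may be only technical.

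E2F factors bind DNA in the promoters of genes for DNA replication, nucleotide synthesis and cell cycle control. E2F1, E2F2 and E2F3 are activators, E2F4 and E2F5 act mainly as repressors with pocket proteins, E2F6 represses without binding a pocket protein, and E2F7 and E2F8 are atypical repressors that bind DNA without a DP partner. RB, encoded by RB1, binds the activators, and p107 and p130, encoded by RBL1 and RBL2, bind mostly E2F4 and E2F5. Cyclin-dependent kinases phosphorylate pocket proteins in G1 and so release E2F. The RB pathway is altered in most glioblastomas, often through loss of the kinase inhibitor gene CDKN2A. Much of E2F and RB control acts on protein, which arrays do not measure.

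RAB38 was lower in both silenced arrays, with log2 values of 2.52 and 3.43 against 4.69 and 4.78 in NT, or 29.6% of the NT level. Array medians lay between 3.47 and 3.51. Of 12 glioma and astroglial markers, 10 lay above the median signal of all genes, among them VIM, SOX2 and CD44. GFAP (2.81 to 3.35) and CHI3L1 (1.95 to 2.25) were at low signal. None of the 7 endothelial and epithelial markers and 1 of the 4 leukocyte markers, CD68, lay above that median. Of 4 neuronal markers 3 did, and their mean signal was 5.36 and 5.46 in NT against 5.59 and 5.52 in siRAB38, which came from SNAP25 (log2 fold change 0.64). MAP2 had -0.11, SYT1 held 1 identical value in all 4 arrays, and the median of the list was 0.04. The part of SNAP25-expressing cells in the results below was not tested. Proliferation markers were close between groups: MKI67 had 9.39 and 9.40 in NT and 9.37 and 9.38 in siRAB38.

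No gene, member or not, passed an adjusted p of 0.05 when limma p-values were adjusted by Benjamini-Hochberg across 22458 genes (0% of genes called, smallest adjusted p 0.70). At an unadjusted p under 0.05 there were 1539 genes in limma and 1473 in the methods' t-test, which also gave 0 after adjustment. None of the 10 members reached even an unadjusted p under 0.05 in limma, beside 6.85% of all genes. In 3 members, E2F1, E2F4 and E2F8, each siRAB38 array was lower than either NT array, beside 17.2% of all genes, and in 0 members was each higher, beside 18.8%. The log2 fold change was below 0 in 7 of 10 members, beside 48.3% of all genes. The median over the members was -0.09, against 0.01 for all genes, and single values ran from -0.30 for E2F4 to 0.05 for E2F7. A share of 3 in 10 lower without overlap is above the 17.2% of all genes. With only 10 members, though, the count by itself does not set them apart. With 2 arrays against 2, an exact permutation test can give no two-sided p below 0.333.

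**Figure D1:**
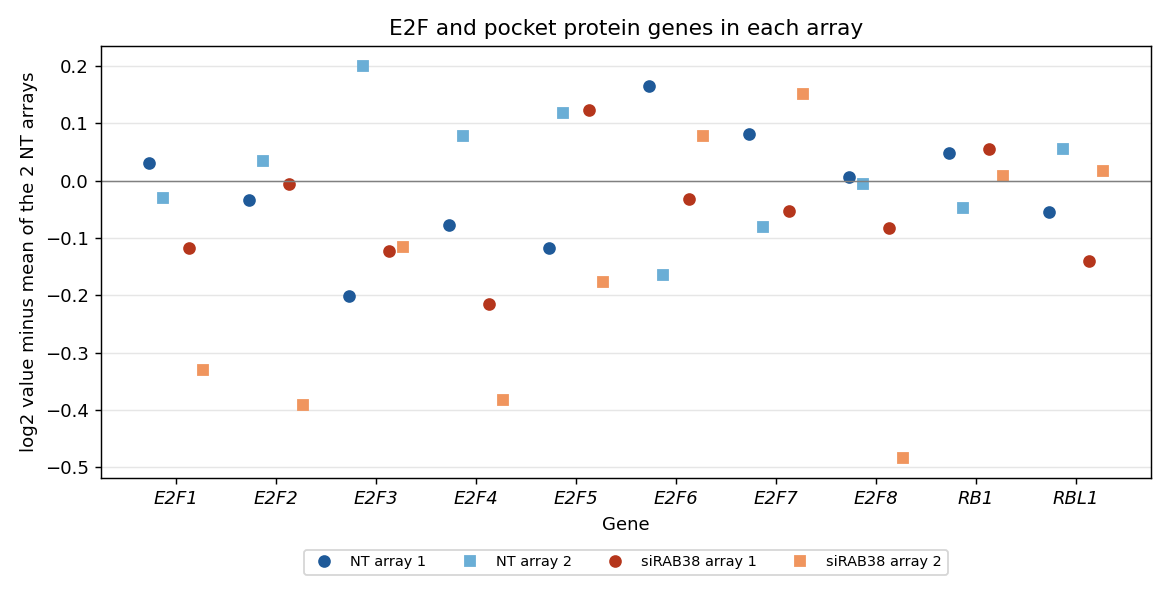
Log2 value of each gene (x axis) in each array, as the difference from the mean of the 2 NT arrays (y axis, log2 units). Blue points are NT and red or orange points are siRAB38; E2F1, E2F4 and E2F8 are the genes in which both siRAB38 points lie below both NT points, and siRAB38 array 2 is the lowest point for E2F1, E2F2, E2F4, E2F5 and E2F8.

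The activator genes E2F1, E2F2 and E2F3 were all lower on average after RAB38 silencing, but only E2F1 was lower without overlap. E2F1, which drives S-phase genes and can also induce apoptosis, had log2 values of 7.11 and 7.05 in NT and 6.96 and 6.75 in siRAB38. Its groups were separate by a gap of 0.09, which is smaller than the 0.21 between the siRAB38 arrays. E2F1 thus stood at 85.6% of its NT level, a log2 fold change of -0.22 (standard error, SE, 0.12, 95% confidence interval -0.54 to 0.09) and an adjusted p = 0.75 from limma. Without 1 array it ran from -0.33 to -0.12.

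E2F2, a close relative of E2F1, had 6.06 and 6.13 in NT but 6.09 and 5.70 in siRAB38. Its first siRAB38 array lay between the NT arrays and its second well below them. The log2 fold change was -0.20 (SE 0.16, adjusted p = 0.83 from limma) and rested on siRAB38 array 2, since it was -0.01 without that array and -0.39 without siRAB38 array 1. E2F3, which is made from a pair of alternative starts that the array row does not separate, had 4.67 and 5.07 in NT and 4.75 and 4.76 in siRAB38. Here the NT arrays were the ones that differed, and both siRAB38 arrays lay between them. For E2F3 it was -0.12 (95% confidence interval from -0.53 to 0.29), with -0.32 without NT array 1 and 0.08 without NT array 2.

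The activators are known to be under E2F control themselves, so the promoter windows of the members were searched for the E2F consensus. The RefSeq table of build GRCh38.p14, with 250 bases before and 50 after each start, held a window for 8 of the 10 members. E2F5 and E2F8 were not matched. The consensus was spelled as TTTCCCGC, TTTCGCGC, TTTGCCGC or TTTGGCGC on either strand. Of the 8 members, 4 held a match (E2F1, E2F2, E2F3 and RBL1), a share of 50%, against 3.99% of the 27305 genes in the table. These 4 were known beforehand as E2F-controlled genes, so the share is not independent evidence. E2F4, E2F6, E2F7 and RB1 had no match in their windows. RBL2 and the DP partner gene TFDP2, searched beside the members, had none either. The stretches around the matches are shown because they hold what the E2F1, E2F2, E2F3 and RBL1 promoters share, and the same search gave TFDP1, the gene of a DP partner. Each is written 5′ to 3′ on the gene's strand, ends before the start site, and has the matches in capitals.
E2F1, chr20:33686386-33686438 on the minus strand: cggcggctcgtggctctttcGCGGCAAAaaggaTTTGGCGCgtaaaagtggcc
E2F2, chr1:23531248-23531295 on the minus strand: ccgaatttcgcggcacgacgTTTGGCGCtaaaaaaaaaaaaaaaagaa
E2F3, chr6:20401806-20401853 on the plus strand: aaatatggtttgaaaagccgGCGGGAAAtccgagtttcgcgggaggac
RBL1, chr20:37095998-37096043 on the minus strand: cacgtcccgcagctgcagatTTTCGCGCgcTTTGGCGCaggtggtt
TFDP1, chr13:113584613-113584660 on the plus strand: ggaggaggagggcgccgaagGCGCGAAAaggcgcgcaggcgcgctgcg

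The E2F1 and RBL1 stretches each held 2 matches and the others 1. In E2F1, E2F3 and TFDP1 a match reads on the opposite strand, where its letters appear as the reverse complement. Counted to the first base of the match, the sites began 33 and 20 bases before the start in E2F1, 42 in E2F2, 53 in E2F3 and 26 and 16 in RBL1. The CHR element (TTTGAA or TTCGAA, either strand), a site of cell cycle repressor complexes, was found in the upstream E2F3 window and in no other member window, against 19.5% of all genes. The E-box CACGTG, which MYC binds, was found only in the downstream E2F3 window, against 8.77% of all genes. No match of one motif shared bases with a match of another in these windows. A match is a description of letters and not evidence of binding. As only exact spellings were counted, a window without a match is not shown to lack E2F sites. The 4 members with a match had log2 fold changes of -0.22 (E2F1), -0.20 (E2F2), -0.12 (E2F3) and -0.06 (RBL1). Of those with a window but no match, E2F6, E2F7 and RB1 had 0.02, 0.05 and 0.03 and E2F4 had -0.30, the lowest of all members. With so few members no relation to the motif was tested.

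E2F4, the main E2F of resting cells and a subunit of the DREAM repressor complex, had the lowest fold change of the 10 members. Signals of 7.63 and 7.79 in NT compared with 7.49 and 7.33 in siRAB38, with no overlap and a gap of 0.14 between the groups. E2F4 thus stood at 81.3% of its NT level, a log2 fold change of -0.30 (SE 0.12, 95% confidence interval -0.62 to 0.02) with an unadjusted p = 0.059 and an adjusted p = 0.72 from limma. Leaving out any 1 array kept it between -0.38 and -0.22, so E2F4 was the member whose value moved least relative to its size. E2F5, the other pocket-bound repressor, had 3.24 and 3.48 in NT and 3.48 and 3.18 in siRAB38. Both groups covered nearly the same range, close to the array medians. For E2F5 the log2 fold change was -0.03 with a 95% confidence interval from -0.42 to 0.37, or 74.5% to 129% of the NT level, so a change of moderate size in either direction was not detectable.

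E2F6, which represses germline genes in somatic cells as part of a Polycomb complex, overlapped between the groups. It had 5.18 and 4.85 in NT and 4.98 and 5.09 in siRAB38, both siRAB38 arrays lying between the NT arrays. Its log2 fold change was 0.02 (95% confidence interval from -0.35 to 0.40). The interval spans 78.2% to 132% of the NT level.

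The atypical repressors E2F7 and E2F8 had log2 fold changes of opposite sign, both with intervals that include 0. These proteins switch off E2F1 and other E2F targets late in S phase. E2F8 had 7.45 and 7.43 in NT and 7.36 and 6.96 in siRAB38. Its NT arrays differed by 0.01 and its siRAB38 arrays by 0.40, so the groups did not overlap but the second siRAB38 array set most of the difference. E2F8 stood at 82.2% of its NT level, a log2 fold change of -0.28 (SE 0.16, 95% confidence interval -0.69 to 0.13) and an adjusted p = 0.76 from limma. It was -0.08 without siRAB38 array 2 and -0.48 without siRAB38 array 1. E2F7 had 7.46 and 7.30 in NT and 7.33 and 7.53 in siRAB38, with overlapping groups. For E2F7 the log2 fold change was 0.05 (95% confidence interval from -0.28 to 0.38). Without 1 array that of E2F7 ran from -0.05 to 0.15, so its sign was not stable. The difference between the fold changes of E2F7 and E2F8 was not tested.

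Among the pocket proteins, RB1 and RBL1 were close to NT while RBL2 was higher. RB1 had 8.10 and 8.01 in NT and 8.11 and 8.06 in siRAB38. Its log2 fold change was 0.03 with the narrowest interval of the members, from -0.24 to 0.30, or 84.6% to 123% of the NT level. RBL1, itself an E2F target that is made mostly in cycling cells, had 7.63 and 7.74 in NT and 7.54 and 7.70 in siRAB38. Its arrays interleaved, and the log2 fold change was -0.06 (95% confidence interval from -0.36 to 0.24). RBL2, whose product p130 is the pocket protein of resting cells, had 6.26 and 6.45 in NT and 6.77 and 6.67 in siRAB38. Both siRAB38 arrays lay above both NT arrays. RBL2 stood at 129% of its NT level, a log2 fold change of 0.36 (SE 0.12, 95% confidence interval 0.05 to 0.68) with an unadjusted p = 0.030 and an adjusted p = 0.72 from limma. Leaving out 1 array gave values from 0.27 to 0.46. RBL2 did not pass over all genes, and 3.75% of all genes were higher at an unadjusted p under 0.05.

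**Figure D2:**
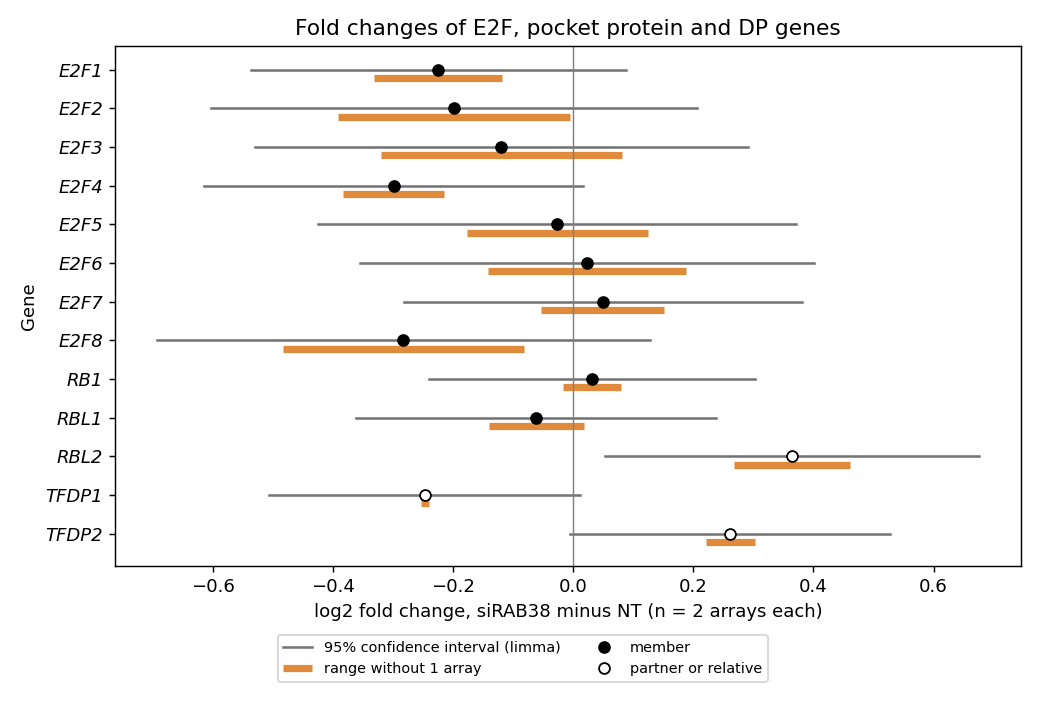
Log2 fold change of siRAB38 minus NT (x axis) for the 10 members (filled) and for RBL2, TFDP1 and TFDP2 (open), from 2 arrays a group. Grey lines are 95% confidence intervals from limma and orange bars the range when 1 array is left out. All 10 member intervals include 0, and the bars of E2F1, E2F2, E2F4 and E2F8 stay below 0.

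The siRAB38 arrays differed from each other in several members. In siRAB38 array 2, E2F1, E2F2, E2F4, E2F5, E2F8 and RB1 lay below siRAB38 array 1, which is 6 of 10 members and close to the 50.5% of all genes. Averaged over the 10 members after centring each gene on its mean, the arrays stood at 0.04 and 0.07 in NT and at -0.004 and -0.11 in siRAB38. RAB38 itself was lower in siRAB38 array 1 (2.52) than in array 2 (3.43), while MYC, which is known to induce activator E2F genes, was lower in array 2 (4.93) than in array 1 (5.49), with 5.64 and 5.90 in NT. With 2 arrays a group, no relation between these values was computed.

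DP proteins pair with E2F1 to E2F6 on DNA, and the DP genes differed in direction. TFDP1 had 9.16 and 9.17 in NT and 8.91 and 8.93 in siRAB38, with the arrays of each group nearly alike. The log2 fold change of TFDP1 was -0.25 (SE 0.10, unadjusted p = 0.058, adjusted p = 0.72 from limma) and stayed between -0.25 and -0.24 without 1 array. TFDP2 had 4.96 and 4.88 in NT and 5.19 and 5.18 in siRAB38. It was higher in both siRAB38 arrays, with a log2 fold change of 0.26 (SE 0.10, unadjusted p = 0.053 from limma). TFDP3, at low signal, had 1.89 and 1.91 in NT and 1.80 and 1.66 in siRAB38, a log2 fold change of -0.17. Of all 12 DP, MuvB and DREAM genes, 8 were below 0 and 4 above (median -0.12). In this list 3 genes were lower and 2 higher without overlap, near the 17.2% and 18.8% of all genes, and only RBL2 reached an unadjusted p under 0.05. LIN9, a subunit of the MuvB core, had a log2 fold change of -0.20 with no overlap, while FOXM1 and MYBL2, the activators that join MuvB later in the cycle, had -0.10 and -0.13 with overlapping arrays.

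Upstream of the pocket proteins, the kinase inhibitor gene CDKN1A was higher and the cyclin E genes lower. CDKN1A, which encodes p21, had 5.05 and 5.25 in NT against 6.01 and 5.80 in siRAB38. The groups were well apart, and the log2 fold change was 0.75 (SE 0.14, unadjusted p = 0.0024, adjusted p = 0.72 from limma). CCNE2 had 6.60 and 6.74 in NT and 6.29 and 6.24 in siRAB38, a log2 fold change of -0.40. CCNE1 had 5.85 and 5.87 in NT and 5.39 and 5.66 in siRAB38, a log2 fold change of -0.33. Cyclin E activates CDK2 at the end of G1, and both of its genes were lower in each siRAB38 array than in either NT array. CCNE1 had -0.20 without siRAB38 array 1, and its unadjusted p = 0.0498 from limma ran from 0.021 to 0.16 over the alternatives. CDC25A, a phosphatase that activates CDK2, had a log2 fold change of -0.27 without overlap. Of the 18 genes of this list that were measured, 11 were below 0 and 6 above (median -0.09). CDKN1C had 1 identical value in all 4 arrays. Without overlap 8 were lower and 2 higher, beside 17.2% and 18.8% of all genes. At an unadjusted p under 0.05 in limma there were 2 lower and 1 higher, beside 3.1% and 3.75% of all genes. The 2 lower genes at that threshold were CCNE2 and CCNE1. CCNE1, CCNE2 and CDC25A are also on the list of E2F-activated target genes described next, so the counts of these lists are not separate observations. CDKN2A, the gene of p16, lay between 1.99 and 2.19 in the 4 arrays, below the array medians.

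Genes that E2F activates for S phase were lower on average after RAB38 silencing. Of 38 listed target genes 36 were measured, none of them a member. With all 4 arrays, all 36 had a log2 fold change below 0, with a median of -0.20 and a range from -0.47 to -0.02. Without 1 array, 33 to 35 of the 36 were below 0. The groups did not overlap, with siRAB38 the lower, in 27 of 36, beside 17.2% of all genes, and in 0 of 36 was siRAB38 the higher without overlap. At an unadjusted p under 0.05 in limma, 7 of 36 were lower, beside 3.1%, and none passed over all genes. CCNE1 and CCNE2, already counted upstream, are among these 7. CDC45, part of the replicative helicase, had 7.54 and 7.47 in NT and 7.01 and 7.05 in siRAB38. CDC6, which loads the helicase at origins, had 7.08 and 7.01 in NT and 6.68 and 6.50 in siRAB38. MCM3, a helicase subunit, had 8.40 and 8.33 in NT against 8.05 and 7.99 in siRAB38. The groups were apart by more than the spread within them for these 3 genes, with log2 fold changes of -0.47, -0.45 and -0.35. At the other end, RRM2, TK1 and GMNN had -0.03, -0.05 and -0.02. As these are bulk samples, fewer cells in S phase and less of these mRNAs per cell cannot be told apart. Genes of this kind were already known to be lower in these arrays when the list was written, so its direction is not independent evidence.

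**Figure D3:**
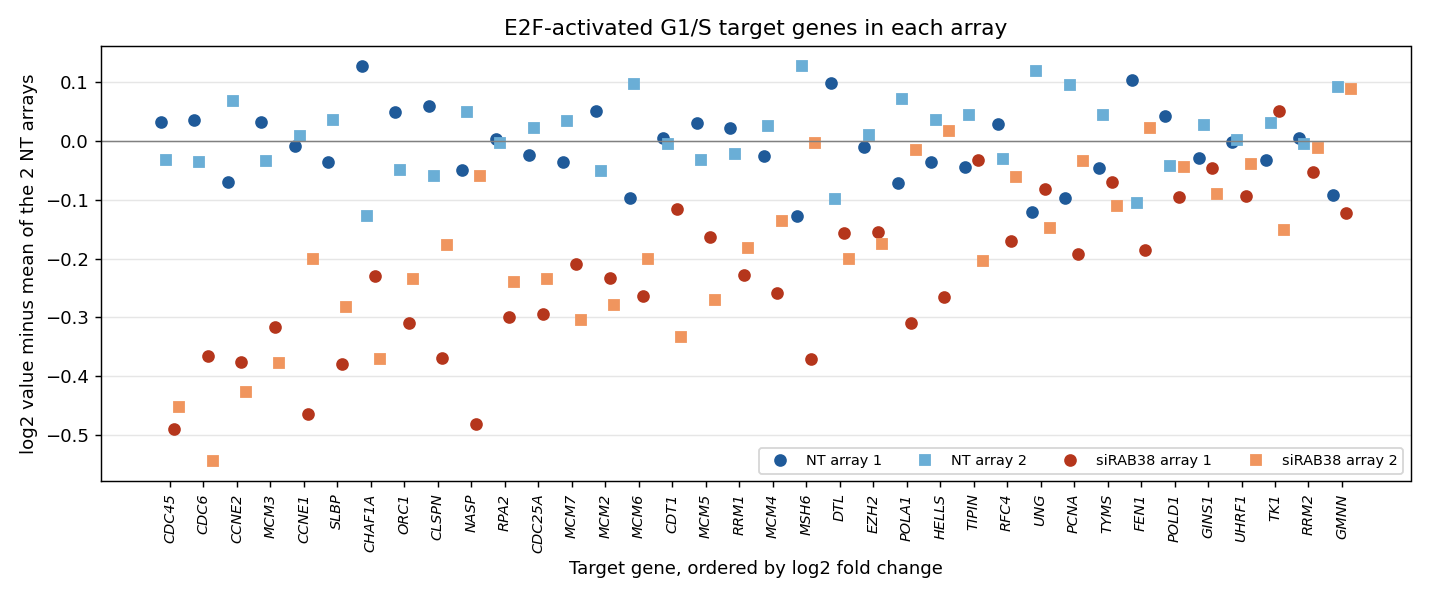
Log2 value of 36 E2F-activated target genes in each array, as the difference from the mean of the 2 NT arrays (y axis, log2 units), ordered by log2 fold change. In 27 of 36 genes both siRAB38 points (red, orange) lie below both NT points (blue), and either siRAB38 array can be the lower one.

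Averaged over the 36 targets and centred by gene, the arrays stood at 0.09 and 0.11 in NT and at -0.13 and -0.08 in siRAB38, and array 2 was below array 1 in 15 of 36 targets, beside 50.5% of all genes. In the promoters, 20 of the 32 target genes with a window held the E2F consensus, or 62.5%, beside 3.99% of the genes in the table. Among them were MCM3, CDC6 and CDC25A, while CDC45, the target with the lowest fold change, and CCNE1 had no match to the exact spellings searched. The list was chosen as E2F targets, so this share is not independent evidence.

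The remaining lists did not lean one way. Of 12 pro-apoptotic genes linked to E2F1, 6 were below 0 and 6 above (median 0.02). TP73 and APAF1, which E2F1 is known to induce, had -0.003 and 0.08 with overlapping arrays, while PMAIP1, the gene of Noxa, had -0.40 and BCL2L11, the gene of Bim, 0.17, both without overlap. MAP3K5 and CASP8AP2 both had -0.17, the latter with overlap. Single arrays weighed heavily here: PMAIP1 had -0.18 without siRAB38 array 1 and -0.62 without siRAB38 array 2, CASP8AP2 had -0.01 and -0.34, and MAP3K5 had -0.07 without NT array 2 and -0.28 without NT array 1. Here 2 genes were lower and 1 higher without overlap, at or under the 17.2% and 18.8% of all genes, and none reached an unadjusted p under 0.05.

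Of 12 genes of the Polycomb complex that holds E2F6, 4 were below 0 and 8 above (median 0.02), with values from -0.14 for HDAC2 to 0.12 for CBX3. HDAC1, EPC1 and MGA had -0.13, -0.13 and 0.11. Of 14 germline genes repressed through E2F6, a role known largely from mouse, 6 were below 0 and 8 above (median 0.04). Without overlap 3 of these were lower and 3 higher, near the 17.2% and 18.8% of all genes. CPEB1, a regulator of mRNA polyadenylation, had 4.70 and 4.68 in NT and 5.05 and 5.00 in siRAB38 (log2 fold change 0.34, unadjusted p = 0.021), and TEX101 had 0.36. The tubulin genes TUBA3E and TUBA3D had -0.34 and -0.31, and as near-identical copies they may share probes. Leaving out 1 array gave 0.18 for TEX101 and -0.15 for TUBA3D without siRAB38 array 2, and -0.20 for TUBA3E without NT array 2. Many germline genes lay at low signal, such as DDX4 at 1.39 to 1.64, where small differences carry little weight.

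Corepressors that pocket proteins recruit were divided as well, with 7 of 16 below 0, 9 above and a median of 0.003. Without overlap 6 were higher and 3 lower, beside 18.8% and 17.2% of all genes. SAP30, a subunit of the Sin3 histone deacetylase complex, had 5.11 and 5.21 in NT and 5.50 and 5.49 in siRAB38, a log2 fold change of 0.33 (unadjusted p = 0.026). KMT5B, a histone H4 methyltransferase, had 0.31, and the SWI/SNF ATPase genes SMARCA2 and SMARCA4 had 0.22 and 0.16. SMARCA2 had 0.096 without siRAB38 array 2, and without NT array 1 SMARCA4 had 0.095 and KMT5B 0.21. These 4 were all higher in both siRAB38 arrays. The deacetylase genes HDAC1 and HDAC2 were lower in both, with HDAC2 at -0.14 and at -0.06 without siRAB38 array 1. HDAC1 and HDAC2 are counted in the E2F6 complex list as well.

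**Figure D4:**
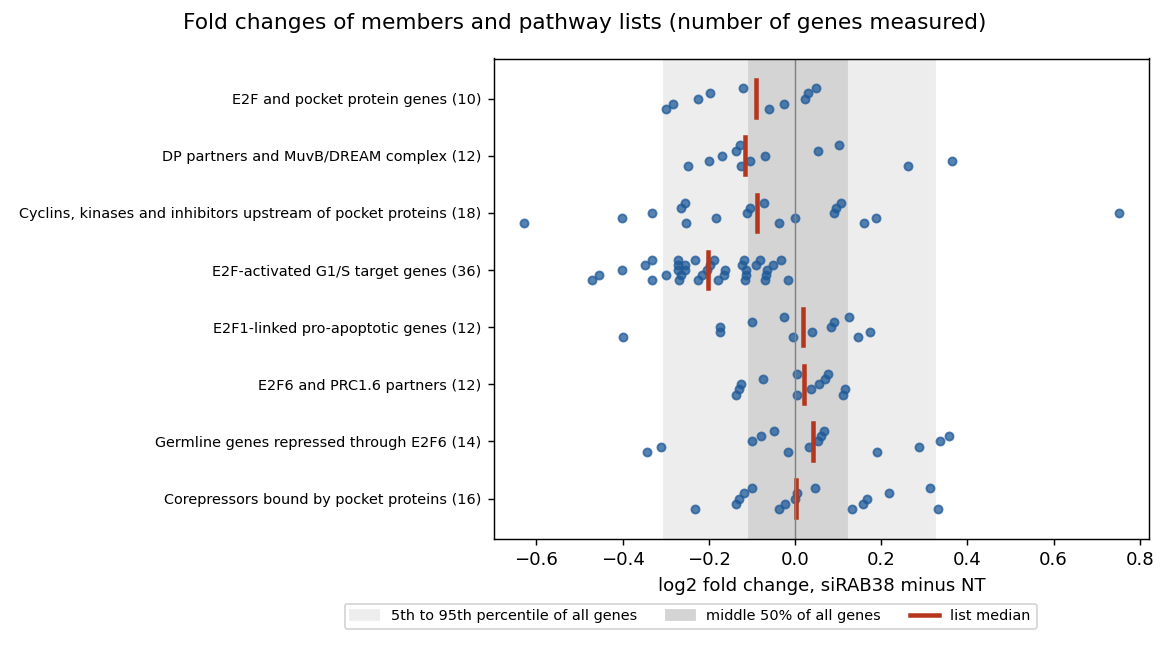
Log2 fold change of siRAB38 minus NT (x axis) for each gene of the members and of the 7 pathway lists (rows, with the number measured); red bars are list medians and grey bands the middle 50% and the 5th to 95th percentile of all genes. The target list lies wholly below 0 with a median of -0.20, while the E2F and pocket protein genes have a median of -0.09.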

How the data were processed

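RNA was labelled with the Affymetrix WT Plus kit. The authors deposited log2 values of 4 arrays made with RMA (background correction, quantile normalization, 1 value per row), with affy 1.60.0 and R 3.5.1 according to the submitters' processing notes. Row definition and genome build are not given in the sources used here. RMA hides a shift common to all genes and compresses differences of dim genes, and the number of arrays limits the precision. Arrays were assigned to groups by title. Of 23786 rows, 22458 carried 1 symbol in the platform annotation, none several and 1328 none. Dim rows were kept.

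siRAB38 was compared with NT in limma 3.58.1 (R 4.3.3; lmFit, eBayes without trend, Benjamini-Hochberg over 22458 genes, threshold 0.05). The methods give no model for the arrays (only ANOVA and t-tests for the study as a whole), so limma is a choice made here. It was tested on simulated data. Pathway lists came from general knowledge, and 120 of their 129 entries were measured. Named genes were the 10 members, RAB38, MYC, TFDP1, TFDP2, RBL2 and the 4 genes of each list with the smallest p; other list or marker genes named were chosen after their values were seen. Members and lists were chosen with earlier results of these data known.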

Additional observations from a re-analysis of the deposited data

How the results depend on the processing

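No gene passed the adjusted threshold under any of the 12 alternatives, and 7 members stayed below 0 except without 1 array, where 6 to 8 did. The members at an unadjusted p under 0.05 numbered 1 with a trended, robust prior (E2F4) and 0 to 2 without 1 array, the 2 being E2F2 and E2F8 without siRAB38 array 1. Without 1 array, genes at an unadjusted p under 0.05 numbered 920 to 1624, against 1539 with all arrays; the lowest counts came without NT array 1 (920) and NT array 2 (997). Members without overlap numbered 5 to 9, where 64.9% to 70.5% of all genes do not overlap because 3 arrays are left. Target genes below 0 numbered 33 to 35 of 36 without 1 array, and germline genes 6 to 9 of 14, 9 coming without NT array 2. Genes below 0 among the E2F6 partners numbered 4 to 7 without 1 array, 7 coming without siRAB38 array 2, and 6 with a second quantile normalization or median centring, which gave 5 pro-apoptotic genes and 9 corepressors below 0, respectively. Among the genes named by rule, signs turned only without 1 array, where log2 fold changes ran from -0.32 to 0.081 for E2F3, from -0.18 to 0.12 for E2F5, from -0.14 to 0.19 for E2F6, from -0.053 to 0.15 for E2F7, from -0.017 to 0.080 for RB1, from -0.14 to 0.017 for RBL1, from -0.26 to 0.0093 for EPC1 and from -0.0050 to 0.23 for MGA. The cause was not tested. The arrays share only a replicate number (correlation of deviations -0.05 for same-numbered arrays). With the replicate number as a block, 1249 genes had an unadjusted p under 0.05 and still none passed after adjustment. At an unadjusted p under 0.05 the block lost RBL2 (0.058), CCNE1 (0.063) and MYC (0.087) and brought in TUBA3D (0.04999), each with an adjusted p = 0.80 from limma.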
